A study of Mus musculus with 2 samples.

Results

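Non-cycling type 1 conventional dendritic cells (cDC1s) were chosen in both libraries by their unique molecular identifier (UMI) counts. Barcodes needed 500 UMIs or more from 300 genes or more, with mitochondrial UMIs at 10% or below. A cDC1 had at least 2 UMIs of Xcr1 and Clec9a together, at most 1 of Cd3d, Cd3e and Cd3g, and at most 2 of the mature dendritic cell genes Fscn1, Ccl22 and Cacnb3. Cells with more than 1 UMI of the proliferation genes Mki67 and Top2a were set aside as cycling. This gave 124 cells in the WT library and 124 in the KO library, 248 of 2074 filtered barcodes. The genes of these gates chose the cells and are not results.

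Both groups were female mice with floxed Tcf7 alleles (Tcf7 FL/FL) that received 250000 B16Ova cells, B16 melanoma cells that carry ovalbumin, under the skin of the flank. The WT mice were E8i-cre- and the KO mice (Tcf7 cKO) were E8i-cre+. E8i-cre is a Cre recombinase driven by a Cd8a enhancer that is active in mature CD8 T cells. The sources used here do not name the deleted exons. Tumors were harvested on day 13. The 3 tumors of a group were pooled into 1 library after the sorting of 4 populations (CD8 T cells, CD4 T cells, a CD11c+ MHCII+ dendritic cell gate that took in CD24+ and CD24 low cells, and other CD45+ cells), 2000 cells of each per tumor, and 7000 cells were loaded.

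Type 1 conventional dendritic cells depend on the transcription factors IRF8 and BATF3, take up dead cells through receptors such as CLEC9A, and present the captured antigen on MHC class I to CD8 T cells, which is called cross-presentation. In tumors they are also known as a source of CXCL9 and CXCL10, chemokines that attract T cells through CXCR3, and they answer interferon gamma made by those T cells. When they mature they gain CCR7 and leave for the draining lymph node.

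With 1 library per group there were no replicates, no p-value was computed, and the values below describe these libraries only. Levels are given as CPM, the UMIs of a gene summed over the cells of a class in a library scaled to 1e6 UMIs of that class. The 95% intervals in parentheses (exact Poisson for a CPM, exact conditional binomial for a ratio, Clopper-Pearson for a share) cover counting error only. They do not hold the spread between animals, which the barcodes do not identify. "Higher" and "lower" describe these libraries.

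The non-cycling cDC1s were the deepest of the non-cycling antigen-presenting classes and their depth was alike in both libraries. The WT cells held 1931 to 26458 UMIs with a median of 15519.5, and the KO cells 3134 to 34126 with a median of 16037.5. Their totals were 1915081 and 1921508 UMIs, and the median number of genes was 3216 and 3169.5. The comparison classes, gated in the same way, were type 2 dendritic cells (41 WT and 62 KO cells), mature dendritic cells (94 and 66) and C1q-positive macrophages (32 and 41). Their median depths ran from 3082.5 UMIs (WT macrophages) to 13402 (WT type 2 dendritic cells). Only 1 barcode sequence occurred in both libraries, and 0 of the cDC1s carried it. Tcf7 stood at 158 CPM (136 to 181) in 173 WT CD8 T cells and at 61.5 CPM (50.4 to 74.3) in 170 KO CD8 T cells. In the cDC1s it had 0 UMIs in both libraries, which allows up to 1.93 CPM in WT and 1.92 in KO.

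Among all cells that passed a dendritic cell gate, the non-cycling cDC1s made up 124 of 276 (44.9%, 39.0 to 51.0) in WT and 124 of 282 (44.0%, 38.1 to 49.98) in KO. A further 17 WT and 30 KO cDC1s were cycling, 12.1% (7.18 to 18.6) and 19.5% (13.5 to 26.6) of the cDC1s of their library. These shares are those of sorted and mixed populations. At the cycling threshold, 12 WT and 8 KO members held exactly 1 UMI of Mki67 and Top2a, and 3 WT and 5 KO cells just outside held 2.

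The label was checked with genes that the gate did not use. Wdfy4, a protein needed for cross-presentation and 1 of the given markers, stood at 311 CPM in WT and 351 in KO cDC1s, and no other class passed 80.1 CPM. The adhesion molecule Cadm1, the other such marker, had 26.6 and 22.9 CPM, and KO macrophages reached 27.5, so it did not separate these classes at this depth. After thinning each cell to 5000 UMIs (119 WT and 121 KO cells were deep enough, 5 and 3 were not), Wdfy4 was found in 68.9% (59.8 to 77.1) of WT and 76.9% (68.3 to 84.0) of KO cDC1s. T cells, which should lack it, showed it in 2.78% and 3.49% at the same depth. Unthinned, the cDC1 shares were 86.3% and 94.4%, and those of T cells, whose median depths were 4282.5 and 4634 UMIs, were 2.35% and 3.57%.

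The Xcr1 and Clec9a threshold of 2 UMIs cut through a gradient. Cells with 1 UMI, which would otherwise have qualified (18 WT and 27 KO), had Wdfy4 at 211 and 161 CPM and the enzyme gene Naaa at 687 and 550 CPM. Members with exactly 2 UMIs (23 and 14 cells) had Wdfy4 at 174 and 331 CPM and Naaa at 766 and 810 CPM. Members with 4 or more (84 and 97) had Wdfy4 at 348 and 360 CPM and Naaa at 1399 and 1252 CPM. Cells just outside thus carried cDC1 transcripts at levels near those of the members just inside in WT, and lower ones in KO.

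Measured against type 2 dendritic cells, mature dendritic cells and macrophages, 42 of 3238 genes (1.3%) were at least 2-fold above all of these classes in both libraries, and 99 (3.06%) at least 2-fold below. The gate chose the cells, so these values are a description. Of the 17 members of a cDC1 identity list that could be measured, 11 were in the higher set and 0 in the lower. The list took 0.955% of the UMIs of WT cDC1s and 0.923% of those of KO cDC1s, against 0.141% to 0.309% in the other classes.

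**Figure D1:**
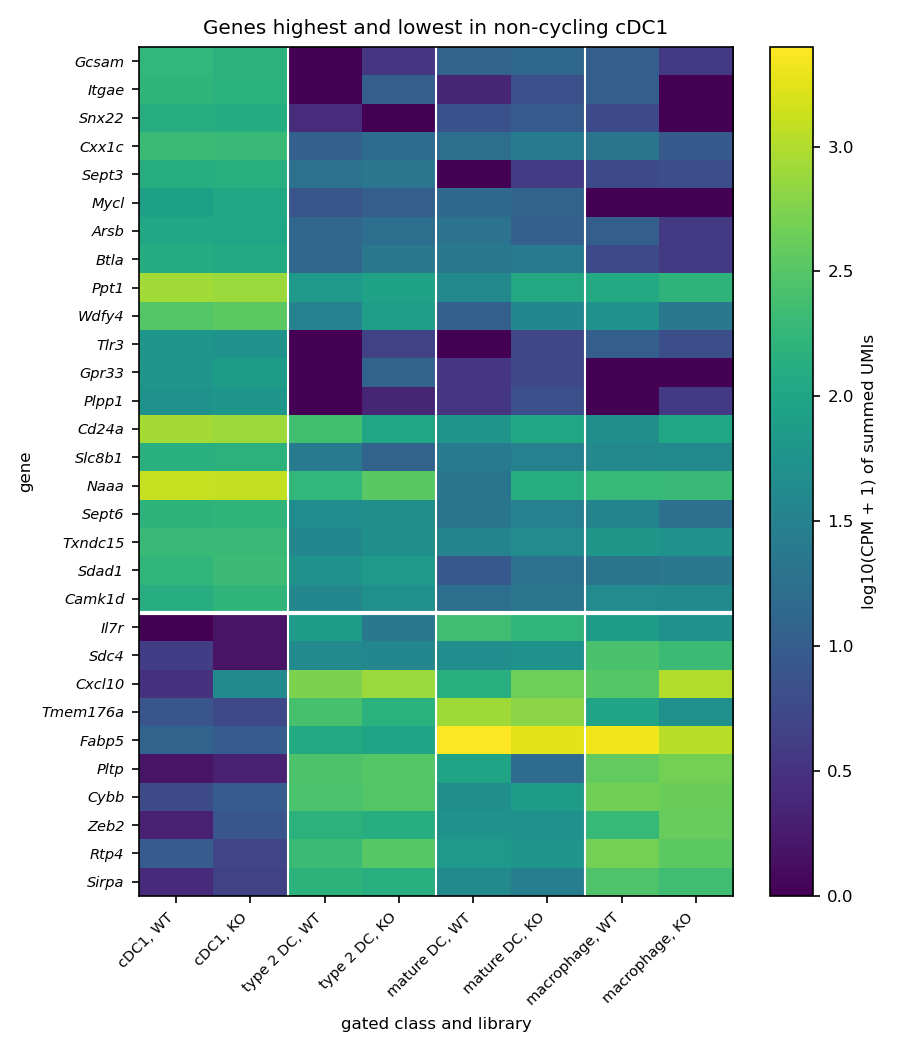
Rows are the 20 genes that stood highest and the 10 that stood lowest in non-cycling cDC1s against the other antigen-presenting classes, columns are the 4 gated classes in the WT and KO library, and color is log10(CPM + 1) of summed UMIs. Both cDC1 columns are bright for the upper genes and dark for the lower ones, where Cxcl10 reads 2.09 CPM in WT and 41.6 in KO cDC1s.

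Gcsam and Itgae led the higher set. Gcsam, a signalling adaptor of germinal center lymphocytes, stood at 179 CPM in WT and 150 in KO cDC1s, while the other classes had 0 to 13.0 CPM. Itgae, the CD103 integrin chain that marks cDC1s of tissues, stood at 164 and 146 CPM against 0 to 9.71 elsewhere. Both genes were thus close to absent outside cDC1s. The double-stranded RNA sensor Tlr3 stood at 60.0 and 53.1 CPM against at most 9.57 CPM. Btla, an inhibitory receptor that binds HVEM, stood at 127 and 116 CPM against at most 23.2 CPM. Naaa, which encodes a lysosomal amidase, stood at 1251 and 1219 CPM, and its nearest competitor was the KO type 2 class at 334 CPM. The lysosomal thioesterase gene Ppt1 stood at 844 and 782 CPM against at most 162 CPM. Irf8, the lineage factor, was also in the higher set, at 1971 CPM in WT and 1933 in KO cDC1s against at most 835 CPM in KO mature cells. Its partner Batf3, at 251 and 282 CPM, was not, because mature dendritic cells held 277 and 238 CPM. Cd24a was in the set too, but CD24 was part of the sort.

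The genes that were low in cDC1s included Sirpa, which marks type 2 cells and macrophages, at 1.57 CPM in WT and 3.64 in KO against 27.5 or more in each other class. Zeb2, a factor that favors the type 2 and monocyte lineages, had 1.04 and 6.77 CPM against 52.2 or more. Cybb, the catalytic chain of the phagocyte NADPH oxidase, had 5.22 and 8.85 CPM against 48.4 or more. Low levels of that oxidase chain thus separated cDC1s from all of the compared classes. The chemokine gene Cxcl10 had 2.09 CPM in WT and 41.6 in KO cDC1s, against 139 to 1025 CPM elsewhere. Of the interferon gamma response list, 6 of 18 measured members were at least 2-fold lower in cDC1s than in every other class in both libraries. Gbp2 was among them, at 14.6 CPM in WT and 60.4 in KO cDC1s, where the other classes held 186 to 522 CPM. Of the type I interferon list, 5 of 23 were lower and 0 higher (over all genes 3.06% were lower and 1.3% higher). For these members the cDC1s of both genotypes stood below every compared class of the same tumors.

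KO and WT cDC1s were alike for most genes. Of 2465 genes with at least 50 CPM in 1 library, 45 (1.83%) were higher past 1.5-fold in KO, 64 (2.6%) were lower, and the median log2 ratio of KO to WT was 0.04. The identity list followed that background: 0 of 16 measured members were higher and 1, Plet1, was lower. When CPM was computed per cell and then averaged, so that shallow cells counted as much as deep ones, the split was 64 higher and 57 lower.

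**Figure D2:**
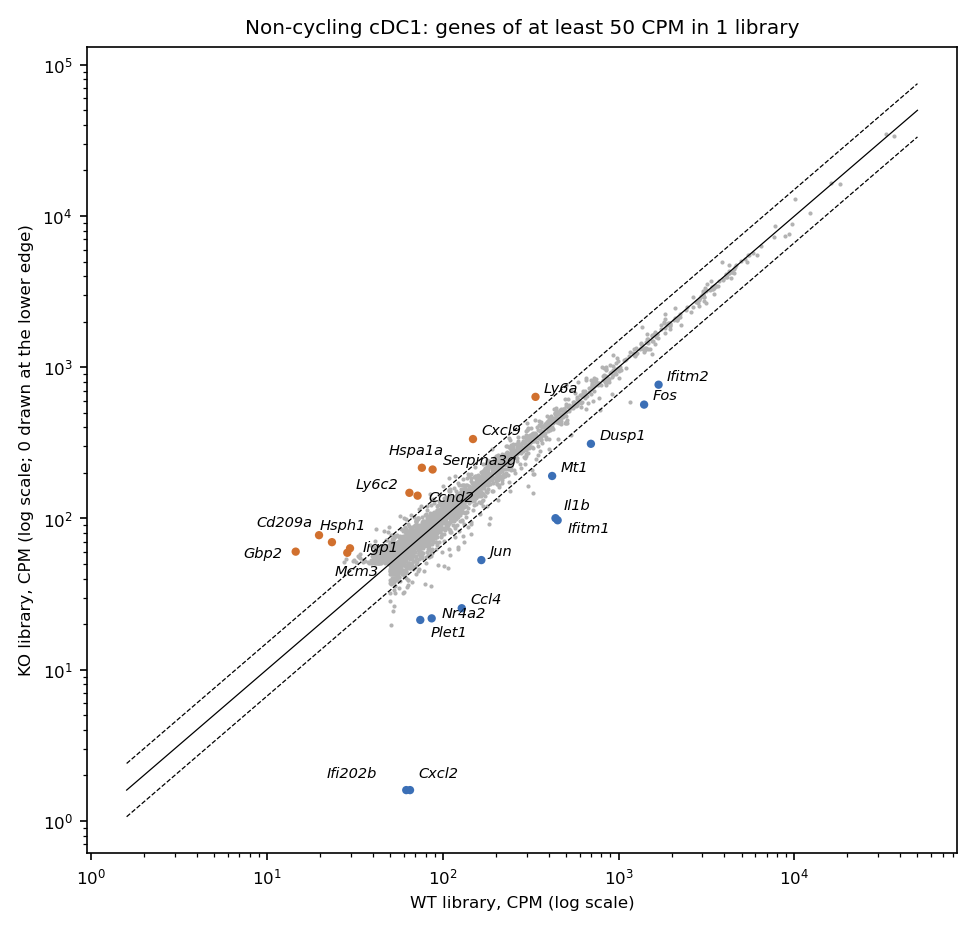
Each point is 1 of the 2465 genes, with its WT CPM across and its KO CPM upward, both on log scales. The solid line marks equal levels, the dashed lines 1.5-fold, and colored points are the named genes, 11 higher and 12 lower, with Ifi202b and Cxcl2 at 0 CPM in KO drawn at the lower edge.

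Interferon gamma response genes were higher in KO cDC1s. Of the 21 genes listed, 11 could be measured, 6 of these were higher past 1.5-fold (background 1.83%), 0 were lower, and the median log2 ratio was 0.61 beside 0.04 over all genes. Of the 20 members with any UMI, 19 had a higher CPM in KO, and the exception was Cd274, the PD-L1 gene, at 13.6 and 8.33 CPM. The list took 0.103% of the UMIs of WT cDC1s and 0.171% of those of KO cDC1s. The lists were drawn up with earlier results of these data known, so their direction is not independent evidence.

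Cxcl9 (chromosome 5, 92321347 to 92328079, minus strand, mm10), the CXCR3 ligand, stood at 149 CPM in WT (132 to 167, 285 UMIs in 24 cells) and 335 CPM in KO (310 to 362, 644 UMIs in 42 cells). The ratio of KO to WT was 2.25 (1.96 to 2.60). Its UMIs were uneven: the top WT cell alone held 119 of them and the top KO cell 93, and the log2 ratio moved from 1.17 to 1.73 without those cells. At 5000 UMIs per cell, 16 of 119 WT cDC1s (13.4%, 7.88 to 20.9) and 32 of 121 KO cDC1s (26.4%, 18.8 to 35.2) had a Cxcl9 UMI, against 1.11% and 5.24% of T cells. Unthinned shares were 19.4% and 33.9%. In cells with a UMI the median was 2 in WT and 2.5 in KO, so the libraries differed more in how many cells held the transcript than in how much a positive cell held.

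Gbp2 (chromosome 3, 142620602 to 142638008, plus strand), a guanylate-binding GTPase induced by interferon, stood at 14.6 CPM in WT (9.72 to 21.1, 12 cells) and 60.4 in KO (49.9 to 72.4, 29 cells), a ratio of 4.13 (2.71 to 6.48). Serpina3g (chromosome 12), a serine protease inhibitor induced in activated leukocytes, stood at 87.7 CPM (75.0 to 102, 33 cells) and 211 CPM (191 to 232, 52 cells), a ratio of 2.40 (2.0 to 2.89). Socs1, an inhibitor of cytokine signalling that interferon gamma induces, stood at 57.4 and 105 CPM in 29 and 60 cells. For these 3 genes both the level and the number of positive cells were higher in KO. Iigp1, an immunity-related GTPase, stood at 29.8 CPM in 8 WT cells and 63.5 CPM in 24 KO cells. Ifi47, of the same GTPase family, stood at 87.7 and 134 CPM, and its log2 ratio of 0.61 came under the 1.5-fold line with a stricter gate (0.47) and with a size factor from the median gene ratio (0.57). Irf1, a transcription factor of the pathway, differed less, at 71.0 and 84.3 CPM. Gbp2, Serpina3g, Socs1, Iigp1, Ifi47 and Irf1 were all found in a larger share of T cells than of cDC1s after thinning, in both libraries. The part of free RNA in their cDC1 values was not tested. The receptor chain Ifngr1 was lower in KO, at 198 CPM against 325 in WT (ratio 0.608), and Ifngr2 stood at 114 and 118 CPM. Gbp, Serpina3 and interferon-inducible GTPase genes belong to families of similar copies, and the sources used here do not say how reads shared by copies were counted.

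Promoter sequences are shown for the interferon gamma genes past 1.5-fold whose windows held a known interferon motif, because this is the list that stood highest in KO. RefSeq promoters on GRCm38.p6, from 250 bases before to 50 after the start, were searched on both strands for the gamma-activated site GAS (TTCNNNGAA) and the interferon-stimulated response element ISRE (GAAA, any 2 bases and GAAA again, which reads as TTTC, 2 bases and TTTC on the other strand). Of 32851 promoter windows, 8.30% held a GAS, 3.44% an ISRE and 11.3% either. Of the 6 genes past 1.5-fold 5 had an entry, and 3 of these held a match. Capitals mark the matches, an ISRE in Gbp2 (chr3:142620413-142620712, plus strand), a pair of overlapping ISREs in Socs1 (chr16:10785487-10785786, minus strand) and a GAS in Serpina3g (chr12:104235897-104236196, plus strand), each 5′ to 3′ on the strand of the gene.
Gbp2: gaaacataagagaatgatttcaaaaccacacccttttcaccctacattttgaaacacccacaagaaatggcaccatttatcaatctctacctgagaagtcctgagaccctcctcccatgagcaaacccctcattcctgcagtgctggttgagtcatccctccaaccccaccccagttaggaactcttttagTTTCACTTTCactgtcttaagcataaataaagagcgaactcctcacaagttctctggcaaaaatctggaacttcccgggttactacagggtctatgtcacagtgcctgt
Socs1: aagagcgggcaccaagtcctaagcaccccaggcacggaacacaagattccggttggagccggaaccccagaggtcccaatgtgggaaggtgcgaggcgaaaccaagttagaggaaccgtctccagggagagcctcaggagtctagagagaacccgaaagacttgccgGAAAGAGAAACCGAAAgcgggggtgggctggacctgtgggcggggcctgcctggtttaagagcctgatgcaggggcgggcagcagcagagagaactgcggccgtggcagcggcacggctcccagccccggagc
Serpina3g: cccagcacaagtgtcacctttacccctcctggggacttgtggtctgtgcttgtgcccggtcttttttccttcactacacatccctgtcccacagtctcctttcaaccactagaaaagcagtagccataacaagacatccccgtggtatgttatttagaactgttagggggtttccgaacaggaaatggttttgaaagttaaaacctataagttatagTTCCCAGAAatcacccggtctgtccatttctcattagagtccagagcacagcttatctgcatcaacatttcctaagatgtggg
A match is a description of the letters and not a site shown to be bound. No match was found in the windows of Cxcl9 and Ifi47, which says only that these letters are not in those windows. Of the 5 list members measured but not past 1.5-fold, 3 had an entry (Irgm1, Tgtp2 and Irf1) and all 3 held a match, so the motifs did not separate the genes that differed from those that did not.

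Type I interferon response genes differed less. Of 10 measured members 1 was higher (background 1.83%), 0 were lower (background 2.6%), and the median log2 ratio was 0.35. Isg15, a ubiquitin-like protein, stood at 535 CPM in WT and 706 in KO, and Irf7, the factor that amplifies type I interferon, at 591 and 800 CPM. Isg20, an exonuclease and the member past 1.5-fold, stood at 73.6 and 116 CPM. Ifitm3, which blocks virus entry, went the other way, at 2264 CPM in WT and 1899 in KO. With CPM averaged over cells the median of this list was 0.58 and 6 of 14 measured members were higher, beside a median of 0.87 for the interferon gamma list on that scale. With Mki67 and Top2a both at 0, 4 of 11 were higher.

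**Figure D3:**
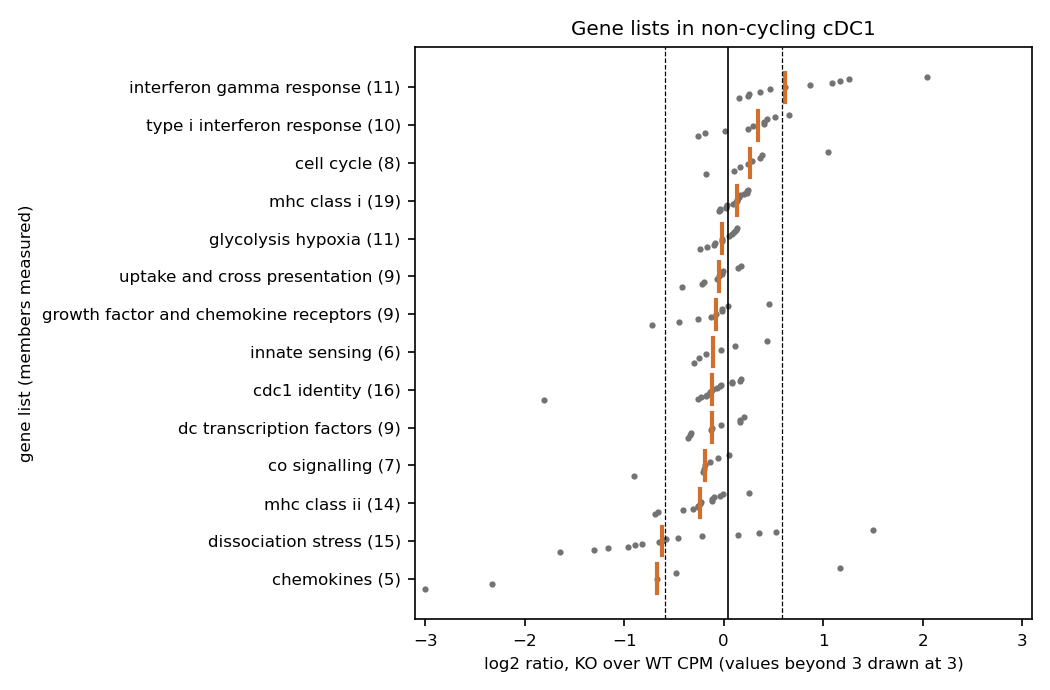
Rows are gene lists with the number of measured members, points are members at their log2 ratio of KO to WT CPM, orange bars are list medians, the solid line is the median of all measured genes and the dashed lines are 1.5-fold. The interferon gamma list sits highest, with a median of 0.61, and chemokines and dissociation stress lowest, at -0.67 and -0.62.

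The Ly6 genes Ly6a and Ly6c2 were higher in KO cDC1s. Ly6a, which encodes the interferon-inducible surface protein Sca-1, stood at 337 CPM in WT (312 to 364, 66 cells) and 637 CPM in KO (602 to 674, 93 cells), a ratio of 1.89 (1.72 to 2.08). Ly6c2, a surface protein of monocytes and activated T cells, stood at 64.7 CPM in 35 cells and 148 CPM in 59 cells, a ratio of 2.28 (1.84 to 2.84). Markers of monocytes moved unevenly beside Ly6c2. Of the 5 measured members of that list 1, Ly6c2, was higher (background 1.83%) and 0 were lower. The summed level of the list was 1617 CPM in WT and 1758 in KO. Lyz2, a lysozyme of monocytes and macrophages, stood at 357 and 279 CPM and Ccr2 at 208 and 206 CPM. Ly6a and Ly6c2 UMIs are abundant in T cells too, where Ly6a was found in 83.9% of WT and 93.4% of KO cells at 5000 UMIs, against 39.5% and 53.7% of cDC1s. T cells are no class without these transcripts, and the part of free RNA in the cDC1 values was not tested.

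Genes of cell growth and heat shock were also among the named genes that were higher in KO. Ccnd2, a D-type cyclin, stood at 72.1 and 142 CPM, a ratio of 1.96 (1.59 to 2.43), in 45 WT and 64 KO cells. Mcm3, a subunit of the replicative helicase, stood at 28.7 and 59.3 CPM, a ratio of 2.07 (1.48 to 2.90). The cycling filter had removed cells with Mki67 and Top2a, and of 8 measured cell cycle genes Mcm3 alone was past 1.5-fold (background 4.42% either way). Hspa1a, the inducible chaperone HSP70, stood at 76.2 and 216 CPM, but 201 of its 416 KO UMIs came from 1 cell, and the log2 ratio of 1.51 was 0.74 without the top cell of each library. Fewer KO cells than WT cells held it, 26 against 35. Hsph1, a cochaperone of HSP70, stood at 23.5 and 69.7 CPM, with 33 of its 134 KO UMIs in 1 cell.

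Cd209a, a lectin of type 2 cells, was higher in KO by a ratio of 3.91 (2.72 to 5.74) that rested on few cells. Cd209a stood at 19.8 CPM in WT (5 cells) and 77.5 CPM in KO (7 cells). The thinned shares of 2.52% and 4.96% did not exceed those in T cells, 5.00% and 6.11%, so the shares are not read as expression. Thinned cells with a Cd209a UMI held a median of 2 (highest 6) in WT and 10.5 (highest 16) in KO. There were 13 WT and 13 KO members that also held gate genes of another class (at least 2 UMIs of Cd209a, Mgl2 and Clec10a, or at least 5 of the C1q genes). Without them, an alternative added after the data were seen, the log2 ratio of Cd209a turned from 1.97 to -1.64. Cd209a itself was among the genes that chose the cells left out, so that turn is set in part by the choice.

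Among the genes lower in KO cDC1s, Il1b (chromosome 2, 129364570 to 129371139, minus strand), the inflammatory cytokine interleukin 1 beta, stood at 438 CPM in WT (409 to 469) and 100.4 CPM in KO (86.8 to 116), a ratio of 0.229 (0.195 to 0.268). It was found in 53 WT and 33 KO cells, and the top cell held 101 of 839 UMIs in WT and 37 of 193 in KO. At 5000 UMIs the shares were 37.8% (29.1 to 47.2) and 18.2% (11.8 to 26.2), against 3.33% and 5.24% of T cells, and unthinned they were 42.7% and 26.6%. Positive cells also held less of it: the mean in thinned cells with a UMI was 6.07 in WT and 2.45 in KO. The medians differed less, at 3 and 2, and the highest cells held 34 and 7.

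Genes of the Ifitm cluster on chromosome 7 were lower as well. Ifitm1 (140967221 to 140969825) stood at 451 CPM in WT (421 to 482, 36 cells) and 97.3 CPM in KO (83.9 to 112, 20 cells), a ratio of 0.216 (0.183 to 0.253), with 278 of 863 WT UMIs in 1 cell. Ifitm2 (140954837 to 140955987) stood at 1689 CPM (1631 to 1748) and 767 CPM (728 to 807), a ratio of 0.454 (0.427 to 0.483), and no WT cell held more than 109 of its 3234 UMIs. Ifitm2 was thus lower across the population, and Ifitm1 in a smaller set of cells. At 5000 UMIs the Ifitm1 share was 24.4% in WT and 8.26% in KO cDC1s, and the KO value was near the 7.86% of KO T cells.

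Chemokine genes went both ways. Of 5 measured, 1, Cxcl9, was higher (background 1.83%) and 3 were lower (background 2.6%), with a median log2 ratio of -0.67. With CPM averaged over cells 2 were higher and 1 was lower, and the median was -0.17. Of 13 members with a UMI 4 had a higher and 9 a lower KO CPM, and Cxcl10, under the 50 CPM minimum, was among the former at 2.09 and 41.6 CPM. Ccl4, a chemokine that attracts T cells and monocytes, stood at 128 CPM in 30 WT cells and 25.5 CPM in 10 KO cells. The ratio was 0.199 (0.143 to 0.271). After thinning, Ccl4 was found in 16.8% of WT and 5.79% of KO cDC1s, against 30.0% and 31.4% of T cells. The Ccl4 level of T cells was higher in KO, at 314 and 854 CPM. Thinned shares of Cxcl10 were 0.84% and 4.96% in cDC1s, against 6.11% and 12.7% in T cells. The part of free RNA in the cDC1 values of Ccl4 and Cxcl10 was not tested. Cxcl2, a neutrophil chemoattractant, stood at 65.3 CPM in WT and 0 in KO. With the 0 set to a floor of 3 UMIs it was 41.8-fold lower, and the 95% interval of the ratio reached 0.0299. Of its 125 WT UMIs 120 were in 1 cell, so this difference is that of 1 cell. Ccl6 stood at 73.6 and 46.3 CPM, with a UMI in 35 WT and 38 KO cells, and it was under the 1.5-fold line without the top cell of each library (log2 -0.37 in place of -0.67). Cxcl16, the ligand of CXCR6, stood at 76.2 and 54.6 CPM.

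Ifi202b (chromosome 1, 173962568 to 173982744, minus strand), a DNA-binding protein of the interferon-inducible p200 family, had 119 UMIs in 25 WT cDC1s (62.1 CPM, 51.5 to 74.4) and 0 in KO, at least 39.8-fold lower against the same floor, and the 95% interval of the ratio reached 0.0314. Over all filtered cells Ifi202b had 332 UMIs in 80 of 988 WT cells and 0 in 1086 KO cells. The labels give no strain background for either group, so a difference in background and the Tcf7 genotype cannot be told apart for this gene. Ifi205, its neighbour in the family (174011998 to 174031810), stood at 1263 and 1338 CPM in cDC1s. Plet1, a surface protein of some cDC1s and the lower member of the identity list, stood at 74.7 CPM in 27 WT cells and 21.3 CPM in 16 KO cells, a ratio of 0.286 (0.197 to 0.407). Mt1, a metal-binding metallothionein, stood at 419 and 191 CPM, a ratio of 0.456 (0.401 to 0.516).

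Immediate early genes, which tissue dissociation is also known to induce, were lower in KO cDC1s. Of 15 measured members of a dissociation stress list 8 were lower (background 2.6%), 1 was higher, and the median log2 ratio was -0.62. Fos stood at 1397 CPM (1345 to 1451) in WT and 566 CPM (533 to 601) in KO, a ratio of 0.405 (0.377 to 0.435), although it was found in nearly as many cells, 108 and 105. Dusp1, a phosphatase of MAP kinases, stood at 697 and 312 CPM, a ratio of 0.448 (0.406 to 0.493). Jun stood at 166 and 53.1 CPM, a ratio of 0.320 (0.253 to 0.401). For Fos the difference was mostly in the amount per cell: at 5000 UMIs 79.0% of WT and 74.4% of KO cDC1s held it (unthinned 87.1% and 84.7%), with a mean of 8.53 and 3.87 UMIs in those cells. For Dusp1 and Jun the share of cells was lower too, at 76.5% and 58.7% for Dusp1 (unthinned 87.9% and 77.4%) and 32.8% and 17.4% for Jun (unthinned 49.2% and 37.9%). Nr4a2, a nuclear receptor of the early response outside that list, stood at 86.7 and 21.9 CPM in 43 and 21 cells. T cells of the same libraries differed in the same direction for several of these genes: Fos stood at 238 and 102 CPM there, Jun at 172 and 76.4, and Dusp1 at 405 and 192. Each genotype was handled as 1 library, so handling and genotype cannot be told apart.

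**Figure D4:**
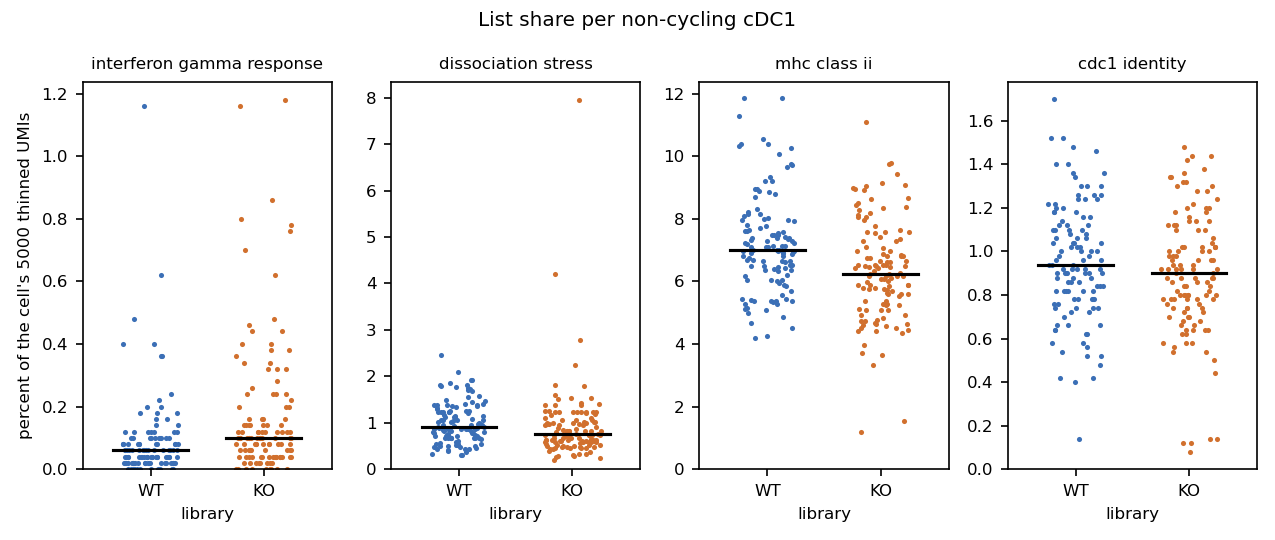
Each point is 1 cDC1 thinned to 5000 UMIs (119 WT, 121 KO) at the percent of its UMIs in a gene list, and black bars are medians. The interferon gamma medians are 0.06% in WT and 0.10% in KO with upper tails in both, the MHC class II medians 7.02% and 6.24%, and 1 KO cell reaches 7.96% for dissociation stress.

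Most antigen presentation genes were near equal, with MHC class I slightly higher and MHC class II slightly lower in KO. Of 19 measured genes of the class I pathway 0 passed 1.5-fold either way (background 4.42% either way), the median log2 ratio was 0.14, and 19 of 22 with a UMI had a higher KO CPM. B2m stood at 924 and 1016 CPM, Tap1, a peptide transporter chain, at 322 and 327 CPM, and the immunoproteasome gene Psmb8 at 1803 and 1960.4 CPM. Class I heavy chain H2-K1 stood at 911 and 925 CPM. Of 14 class II genes 13 had a lower KO CPM and 2 were lower past 1.5-fold (background 2.6%). The class II median was -0.23, beside 0.04 over all genes. H2-Eb1 stood at 9345 and 7563 CPM and H2-Aa at 12269 and 10472 CPM. The 2 past the line were H2-Oa, a chain of the inhibitor of peptide loading (139 and 88.5 CPM), and Lgmn, a lysosomal protease (56.4 and 34.9 CPM). Per cell, the class II list took 4.18% to 11.9% of thinned UMIs in WT (median 7.02%) and 1.20% to 11.1% in KO (median 6.24%), so the libraries overlapped almost fully. Of 9 measured genes of uptake and cross-presentation 0 passed 1.5-fold (background 4.42% either way), and the median was -0.04.

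The lineage factors differed little. Of 9 measured dendritic cell transcription factors 0 passed 1.5-fold (background 4.42% either way), with a median of -0.12. Id2 stood at 1420.3 and 1309 CPM, Batf3 at 251 and 282, and Spi1 (PU.1) at 454 and 508 CPM. Irf4, a factor of type 2 and mature cells, had 0 UMIs in WT and 0.520 CPM in KO. Growth factor receptors also differed little, with Flt3, the receptor that sustains dendritic cells, at 152 and 139 CPM and Csf2rb, the common chain of the GM-CSF receptor, at 112 and 81.7 CPM. Among 9 measured receptors only Ifngr1 passed the line (background 4.42% either way).

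Co-signalling and cytokine genes were sparse. Of 7 measured co-signalling genes 1 was lower past 1.5-fold (background 2.6%) and 0 were higher (background 1.83%). That gene was Cd83, a surface protein of activated dendritic cells, at 306 CPM in 102 WT cells and 163 CPM in 88 KO cells. At 5000 UMIs the Cd83 shares were 67.2% (58.0 to 75.6) and 36.4% (27.8 to 45.6), against 11.7% and 10.0% in T cells, and unthinned 82.3% and 71.0%. Cd86, a ligand of CD28, stood at 122 and 107 CPM, while Cd80 was at 9.92 and 6.77 CPM and Cd40 at 27.7 and 40.1 CPM. Of the cytokines, 3 were measured: Il1b (lower), Tgfb1 at 180 and 244 CPM, and Ebi3, a chain of interleukin 27, at 51.2 and 60.9 CPM. Il12a and Il12b had 0 UMIs in both libraries, which at these totals allows up to 1.93 CPM in WT and 1.92 in KO. Il15 was at 10.4 and 11.4 CPM.

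Maturation genes were low, as the gate against Fscn1, Ccl22 and Cacnb3 set in part. Of 4 measured members 0 passed 1.5-fold (background 4.42% either way). Ccr7 had 49.6 CPM in WT and 19.8 in KO, from 4 cells in each, against 3461 and 2624 CPM in mature dendritic cells.

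Markers of other cell types were near 0 in the cDC1s of both libraries, with exceptions. Summed levels were 0 and 0.520 CPM for T cell markers, with 7 of 7 members used at 0 in WT and 6 of 7 in KO. They were 2.61 and 4.16 CPM for natural killer cells, 3.13 and 2.08 for B cells, 0 and 1.04 for neutrophils, and 8.88 and 8.33 for melanoma cells. Macrophage markers summed to 56.9 and 30.7 CPM and type 2 dendritic cell markers to 66.3 and 136 CPM, the latter mostly Cd209a. The plasmacytoid list reached 472 and 568 CPM, nearly all from Bst2, which interferon also induces, while Siglech was at 0.522 and 0.520 CPM. The gate took cells with at most 1 UMI of the Cd3 genes, so the low T cell markers were set in part by the choice of cells. The source of the interferon gene UMIs was not tested.

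The cDC1s also varied among themselves in ways that both libraries shared. Over 4024 genes with a mean of at least 0.1 UMI per thinned cell in both libraries, the median ratio of variance to mean was 1.06, near the 1 of chance sampling. The 12 genes with the largest ratio in the lower of both libraries were Cst3, Malat1, Ifitm1, Tmsb4x, Cxcl9, Cd74, Vim, Tmsb10, Ccr7, Ly6a, Ifitm3 and Fth1. Cxcl9 had 0 UMIs in 103 of 119 thinned WT cells and in 89 of 121 KO cells, while its highest cells held 27 and 24. Ifitm1 was at 0 in 90 WT and 111 KO cells and reached 74 and 22. Ccr7 was at 0 in 116 and 119 cells and reached 12 and 10. These 3 genes were therefore held by a minority of cells. Cst3, which encodes cystatin C, and Cd74, the invariant chain, were found in every thinned cell and varied in amount.

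Interferon genes were found together in the same cells. The pairs that follow were chosen after their values were seen, and the cells of a library share their free RNA and depth. Serpina3g was present in 8 of 16 WT cDC1s with Cxcl9 (50%, 24.7 to 75.3) and in 11 of 103 without it (10.7%, 5.45 to 18.3). In KO it was present in 18 of 32 (56.3%, 37.7 to 73.6) and 13 of 89 (14.6%, 8.01 to 23.7). The Cxcl9-positive cells thus carried Serpina3g about as often in either genotype, and there were more such cells in KO. Ly6a was present in 13 of 16 and 34 of 103 WT cells, and in 25 of 32 and 40 of 89 KO cells. Gbp2 was present in 5 of 16 and 1 of 103 WT cells, and in 10 of 32 and 6 of 89 KO cells.

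In WT, Il1b was found mostly in cells without Cxcl9, and in KO this was not clear at these cell numbers. In WT it was found in 0 of 16 cDC1s with Cxcl9 (up to 20.6%) and in 45 of 103 without it (43.7%, 33.9 to 53.8), and in KO in 4 of 32 (12.5%, 3.51 to 29.0) and 18 of 89 (20.2%, 12.4 to 30.1), where the intervals overlap. Ifitm1 went with it: 20 of 45 WT cells with Il1b (44.4%, 29.6 to 60.0) and 9 of 74 without it (12.2%) held Ifitm1, and 6 of 22 and 4 of 99 in KO. Pearson's r across cells, on log(UMIs + 1), was 0.37 in WT and 0.40 in KO for Il1b with Ifitm1, and -0.22 and -0.16 for Il1b with Cxcl9, over 119 and 121 cells.

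Several of the differences in cDC1s were found in the other antigen-presenting classes as well, and others were not. Serpina3g was higher in KO in each class, at 69.6 and 194 CPM in type 2 cells, 31.0 and 191 in mature cells, and 67.0 and 214 in macrophages. Cxcl9 was higher too, at 232 and 767 CPM, 28.6 and 784, and 43.1 and 470 CPM in the same order. Both genes were also higher in the KO T cell gate. There Cxcl9 stood at 5.28 and 72.9 CPM (16 and 306 UMIs, ratio 13.8) and Serpina3g at 141 and 203 CPM. The part of free RNA in these values was not tested. The ratio of Cxcl9 was 2.25 in cDC1s, 3.31 in type 2 cells, 10.9 in macrophages and 27.5 in mature cells, but without the top cell of each library the cDC1 log2 ratio was 1.73, beside 1.73 in type 2 cells with all cells kept. Dusp1 was lower in KO in each class, at a ratio of 0.554 in type 2 cells, 0.791 in mature cells and 0.487 in macrophages. Il1b was lower in KO type 2 cells (404 and 127 CPM) but higher in KO mature cells (379 and 772 CPM). The macrophage class held few cells, and their median depth was 3082.5 UMIs in WT and 6030 in KO.

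**Figure D5:**
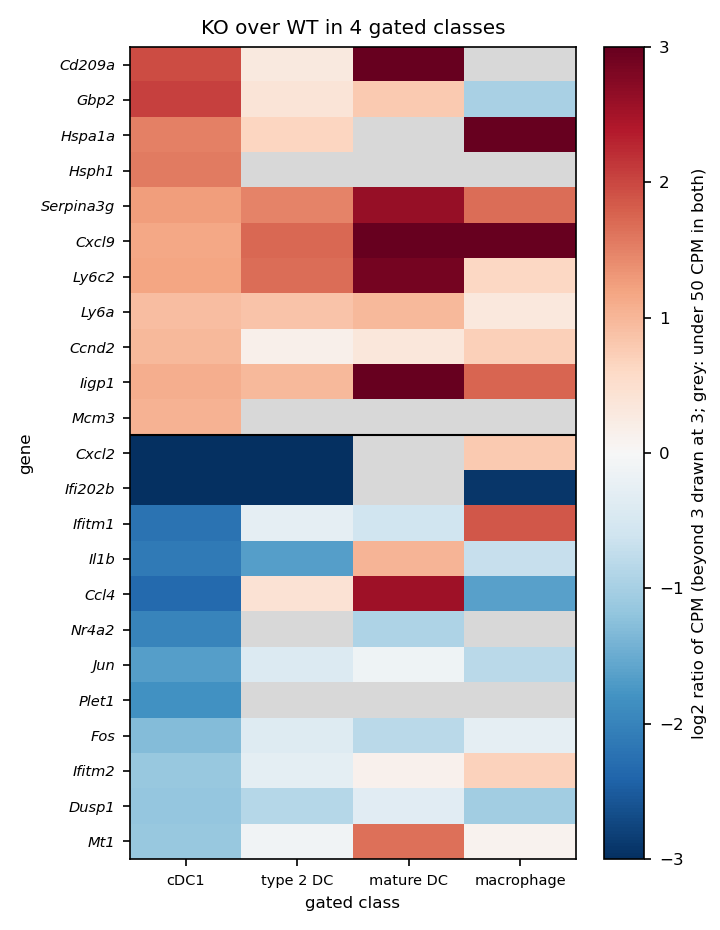
Rows are 23 named genes, columns the gated classes, and color the log2 ratio of KO to WT CPM, drawn at 3 where it is larger and grey where a class has under 50 CPM in both libraries. Serpina3g and Cxcl9 are red in all 4 columns, while Il1b, Ccl4 and Mt1 are blue in cDC1s and red in mature dendritic cells.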

How the data were processed

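Intratumoral immune cells of both groups were profiled in droplet libraries. The deposited matrices hold UMI counts per gene and barcode, whole numbers without normalization per the file headers and the values. The submitters' processing notes name Cell Ranger 1.3 and mm10, and the matrix header gives software version 3.0.2; the annotation release and the chemistry are not given in the sources used here. Each matrix lists 27998 genes. Positions came from GENCODE on GRCm38, where 98.7% of the IDs matched, and promoters from RefSeq on GRCm38.p6.

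Counts were summed per gated class and library and scaled to CPM (Python 3.11.15, numpy 2.4.6, scipy 1.17.1, pandas 2.3.3). The classes were: mature dendritic cells, Fscn1, Ccl22 and Cacnb3 together at least 3 UMIs; type 2 dendritic cells, Cd209a, Mgl2 and Clec10a at least 2, Xcr1 and Clec9a at most 1, C1q genes at most 4; macrophages, C1q genes at least 5; T cells, Cd3 genes at least 3. All but T cells were non-cycling. A gene was called when KO and WT differed past 1.5-fold with at least 50 CPM in 1 library. Against the other classes it had to differ at least 2-fold from each in both libraries, with a floor of 3 UMIs. Named genes were the 12 highest and 12 lowest by the interval bound nearest 1, and the 20 highest and 10 lowest between classes; gate, ribosomal, mitochondrial, antigen receptor and unnamed genes were left out, and 1 gene that met the rule is not reported here. No doublet caller was run. Shares of cells were taken after thinning each cell to 5000 UMIs in 1 seeded draw, which left out 288 WT and 275 KO of the T cells. Scripts were tested on simulated data.

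The gate, the gene lists and the tests were chosen with earlier results of these data known. The files hold no row named Cxcl11, Mx2, Pclaf, Trbc1, Trbc2, Trac or Ighm, and Itgam, which names more than 1 row, was not used. Alternatives changed the scaling, gate, cell filters, expression minimum and thinning depth.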

Additional observations from a re-analysis of the deposited data

Results flagged for a closer look

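Among the named genes, 7 stood past 1.5-fold one way in cDC1s and past 1.5-fold the opposite way in type 2 cells, mature cells or macrophages, with at least 50 CPM in 1 library of that class. None of these differences between classes was tested, because each class has 1 library per genotype. The values that follow are log2 ratios of KO to WT CPM in these libraries.

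In mature dendritic cells 3 of these genes ran the other way. Ccl4 was -2.33 in cDC1s and 2.53 in mature cells (59.6 and 345 CPM), Il1b -2.12 and 1.03 (379 and 772 CPM), and Mt1 -1.13 and 1.66 (372 and 1174 CPM). The macrophage values came from 32 WT and 41 KO cells. Ifitm1 was -2.21 in cDC1s and 1.85 in macrophages (33.5 and 121 CPM). That macrophage value rested on 7 WT and 44 KO UMIs (ratio 3.61, 1.61 to 9.50). Its neighbour Ifitm2 was -1.14 in cDC1s and 0.69 in macrophages (1072 and 1732 CPM). Cxcl2, which rests on 1 WT cDC1, was 0.78 in macrophages (148 and 256 CPM). Gbp2 was the gene higher in KO cDC1s, at 2.05, and lower in KO macrophages, at -0.97 (522 and 267 CPM).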

How the results depend on the processing

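No paired analysis was possible because each genotype has 1 library and the labels give no replicate numbers to pair. The main values recomputed under the alternatives were the gene counts and the medians of the identity, MHC, stress and interferon lists. Of these, 116 stayed within their range and 12 moved. Of all other values, the medians of the remaining lists among them, 2198 stayed, 86 moved and 9 turned sign. A turn of sign was counted for genes past 1.5-fold and list medians at least 0.1 from 0. Medians nearer 0 turned sign in 8 further cases, for glycolysis and for uptake and cross-presentation, with values from 0.0063 to 0.14. The counts followed the expression minimum: at 20 CPM 167 genes were higher and 187 lower in KO, with 64 above the other classes, and at 200 CPM 6 and 15, with 9 above and 39 below. A total without ribosomal and mitochondrial genes gave 105 lower genes. Genes below the other classes numbered 65 without the top cell of each gene and 63 without cells over 1.5 times the median UMIs, where 11 were above. With CPM averaged over cells the type I interferon median was 0.58.

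List medians that turned sign had few measured members. With at least 4 UMIs of Xcr1 and Clec9a, cytokines were at -0.017 and maturation at 0.24. At 200 CPM the values were 0.16 for transcription factors, 1.17 for chemokines, -0.84 for cytokines and 0.045 for innate sensing, and at 20 CPM 0.0032 for maturation and -0.077 for lipid handling. Cd209a turned to -1.64 without cells that hold gate genes of another class, chosen after seeing the data and in part by Cd209a itself. The cause was not tested in any of these.

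The interferon gamma list had 4 to 8 members higher in every alternative except the 200 CPM minimum (2 of 3) and 0 lower in all, with medians from 0.37 to 1.17. The stress list had 4 to 9 lower. Of all 109 genes called in the main setting, 84 stayed called with CPM averaged over cells, 91 with the stricter gate and 88 with cycling cells kept. With the size factor 102 stayed, without the top cell of each gene 98, and without cells holding other gate genes 94. The calls that follow are only those of named genes and list members whose ratio no longer passed the fold threshold. Calls that ended because a gene fell under the expression minimum are not listed. The list counts therefore fell further in places. With CPM averaged over cells the cell cycle list had 0 higher members (main 1). Without the top cell of each gene the chemokine list had 1 lower (main 3). With the stricter gate the interferon gamma list had 4 higher (main 6). Calls ended for Atf3, Ier3, Lgmn and Ccl6 with CPM averaged over cells; Ifi47, Isg20 and Lgmn with the stricter gate; Ifi47 with the size factor; Ccl6 without its top cells; Isg20 and H2-Oa with cycling cells kept; and Isg20, Ifi47 and Ccl6 without cells holding other gate genes. At these depths a gene under 50 CPM has fewer than 100 UMIs per library, so differences in most cytokine genes were not measurable.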

Other observations

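No measured metabolic or sensing gene of the cDC1s passed 1.5-fold. The background was 4.42% either way, so 0 calls in lists this short do not set them apart. Of 11 measured glycolysis and hypoxia genes 0 passed 1.5-fold, with a median log2 ratio of -0.02, and Gapdh stood at 1099 CPM in WT and 1141 in KO, Ldha at 1419 and 1336. Of 6 measured innate sensing genes 0 passed, with a median of -0.10; Unc93b1, which carries endosomal Toll-like receptors, stood at 507 and 428 CPM, Irf5 at 487 and 528, and the STING gene Tmem173 at 134 and 109. Tlr11, a receptor of mouse cDC1s for microbial profilin, was found in 33 WT and 42 KO cells at 23.5 and 36.4 CPM, while Tlr7 had 0 UMIs in both.

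The cDC1s that were set aside as cycling numbered 17 in WT and 30 in KO. Among the members kept, 24 cell cycle genes had a UMI, 17 with a higher and 7 with a lower KO CPM, and the helicase genes Mcm2 (15.1 and 32.8 CPM), Mcm5 (18.8 and 33.8) and Mcm7 (20.9 and 33.3) lay under the 50 CPM minimum on the same side as Mcm3.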
